A study of Mus musculus with 9 samples.

Results

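Fibroblast growth factor (FGF) signalling was followed through 10 genes, out of 55450 in the deposited counts. They were chosen by name for their roles in the pathway. The rule held no measured value, but earlier results of these data were known when the choice was made. They are the ligands *Fgf8* and *Fgf10*, the receptors *Fgfr1*, *Fgfr2* and *Fgfr3*, the feedback inhibitors *Spry1*, *Spry2* and *Dusp6*, and the transcription factors *Etv4* and *Etv5*. All 10 were found, lie on 10 different chromosomes and passed the filter on low counts, which kept 19371 genes.

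FGF ligands are secreted proteins that bind receptor tyrosine kinases at the cell surface together with heparan sulphate chains. The bound receptor passes its signal through RAS and the ERK kinases to ETS transcription factors of the ETV4 group, and the same signal switches on the Sprouty and DUSP inhibitors that dampen it. In the developing pituitary, FGF8 and FGF10 from the infundibulum, the floor of the ventral diencephalon, act on the adjoining epithelium of Rathke's pouch, which carries FGFR2, and sustain its growth.

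The data are bulk RNA sequencing of single mice on a mixed 129Sv/c57BL6J background. The embryos (n = 7) were Sox2 Egfp/+ animals at e13.5, from which Rathke's pouch was taken. The adults (n = 2) were at postnatal week 8, and the whole pituitary without its posterior lobe was taken. The paper reports both sexes in each group, with a male and a female adult, but sex is not given for single samples. Tissue and age differ together between the groups.

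Read pairs counted on genes numbered 16738863, 28537311, 24816013, 18825731, 24687556, 22393725 and 25755469 in embryos 1 to 7, and 36421545 and 31191117 in adults 1 and 2. The unit of level is CPM, the count divided by the library's size in a common unit, with library sizes scaled by the trimmed mean of M values (TMM). A total of 3 counts, taken as the floor, was worth 0.0963 to 0.220 CPM in an embryo, and 0.0727 and 0.0843 CPM in the adults. Embryos 1 and 4 stood apart from the other embryos. They had the smallest shares of read pairs on genes (59.7% and 62.8%, with 73.9% to 80.0% for the remaining embryos). Their summed erythroid markers reached 176429 and 220799 CPM, and no other embryo exceeded 19578 CPM. Results are therefore also given without both.

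The tissue labels were checked against marker genes. The Rathke's pouch genes *Lhx4* and *Hesx1* were higher in every embryo than in both adults (means of 24.2 and 24.8 CPM against 1.23 and 0.451 CPM), and *Lhx3* and *Pitx1* were expressed in all libraries, *Pitx1* at a mean of 395 CPM in the embryo. *Sox2* was lower in every embryo than in both adults (means of 37.3 against 60.5 CPM, adjusted p = 0.0282). The growth hormone gene *Gh* lay between 0.0362 and 1.90 CPM in the embryos and at 53470 and 63848 CPM in the adults. Of 7 hormone genes 6 were called higher in the adult, and the list summed to 870 to 1920 CPM in the embryos, mostly *Cga* (865 CPM), and to 152482 and 160059 CPM in the adults. Both labels fit these markers except *Sox2*, which went the other way. The embryos were Sox2 Egfp/+, and the part of that allele in the *Sox2* level was not tested. The embryo libraries also held RNA of neighbouring tissues, whose levels are given with the results below.

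A gene was called at an adjusted p below 0.05 and a fold change above 4, from edgeR's quasi-likelihood test with Benjamini-Hochberg adjustment over all 19371 genes tested. A positive log2 fold change means a higher level in the embryo. Of the 10 FGF genes, 3 were called higher in the embryo (*Fgf8*, *Etv4* and *Dusp6*), where 11.3% of all genes tested were. DESeq2, the tool of the study, called 2 of them and not *Dusp6*, whose fold was then just under 4. In the other direction 0 were called higher in the adult, by edgeR or by DESeq2, against 14.6% of all genes, while at an unadjusted p below 0.05 there were 5 higher in the embryo and 1 (*Fgfr3*) in the adult. Calls in either direction made up 25.8% of all genes tested, so 3 of 10 is near that share. All 7 embryos lay above both adults for 4 of the 10 genes (*Fgf8*, *Fgfr2*, *Etv4* and *Dusp6*), against 26.2% of all genes, and below both adults for 1 of them (*Fgfr3*), against 32.9%. The median log2 fold change was 0.72 for the 10 genes and -0.04 for all genes tested. Scaling by library size alone moved the median of all genes to -0.26 and that of the 10 genes to 0.54. The genes thus did not move together, and the ligands, the receptors and the targets are described in turn.

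**Figure D1:**
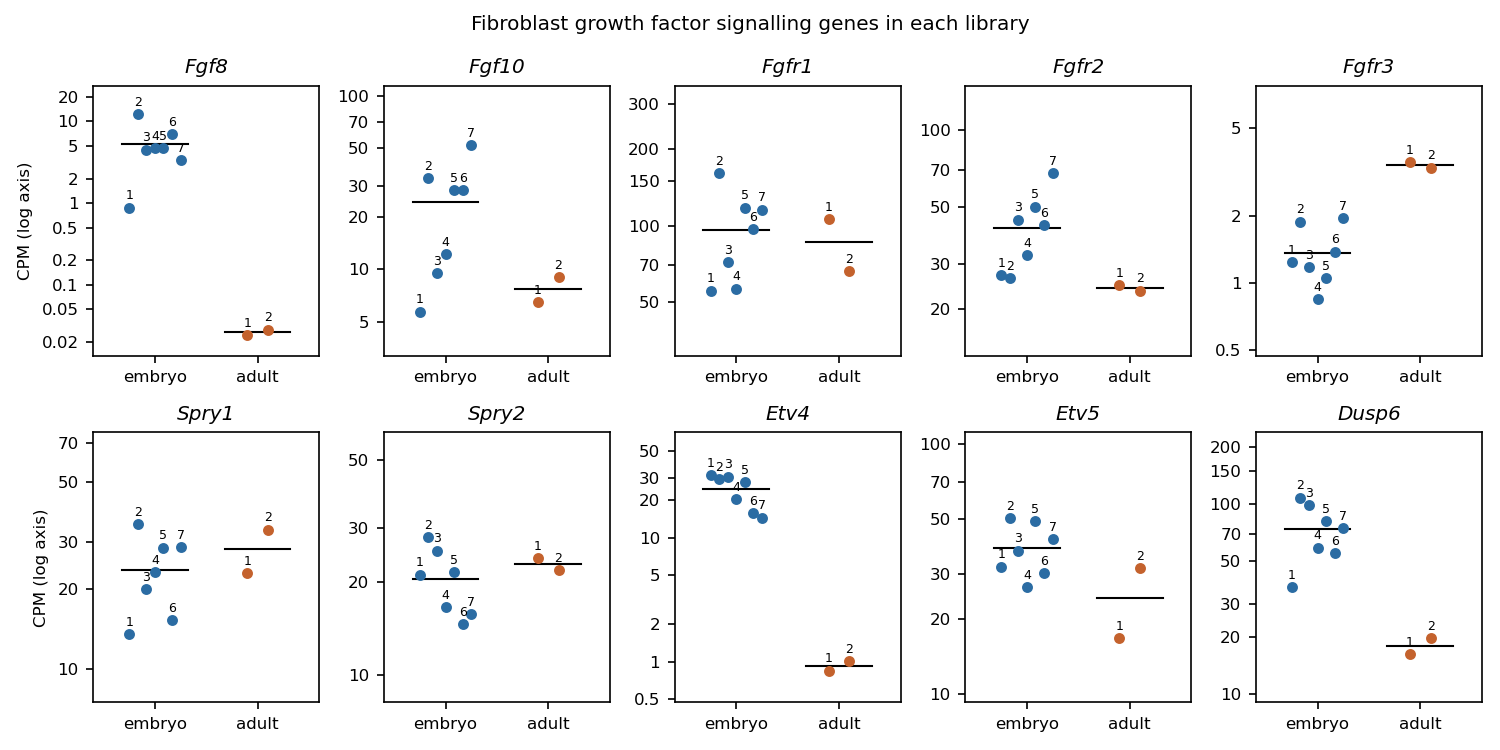
CPM of the 10 FGF genes in each library on a log axis. Each point is a library with its replicate number, and each line is a group mean. The embryos and adults are separate for *Fgf8*, *Fgfr2*, *Fgfr3*, *Etv4* and *Dusp6*.

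*Fgf8* encodes a ligand of the infundibulum and of other signalling centres of the embryo. Its level in the embryos ran from 0.879 CPM (embryo 1) over a median of 4.73 to 12.4 CPM (embryo 2), and adults 1 and 2 were at 0.0242 and 0.0281 CPM. Each adult value was a single read pair, so the gene was next to absent from the adult libraries, while every embryo library held it. The embryos had 12 (embryo 1) to 366 (embryo 2) counts. Pooled over libraries, the level in the embryo was 223 times that in the adult (95% interval 61.4 to 1841, which covers counting error only). The fitted log2 fold change was 7.45 (standard error, SE, 1.15; adjusted p = 0.00014 by edgeR's quasi-likelihood test). The gene was called under each of the 18 alternatives that tested it, and without embryos 1 and 4 its log2 fold change was 7.74. In a bulk sample, fewer cells that express a gene and less of its RNA per cell cannot be told apart.

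*Fgf10* encodes a ligand made by the infundibulum and by mesenchyme that signals to epithelium. It ran from 5.71 CPM (embryo 1) over a median of 28.6 to 51.6 CPM (embryo 7), and the adults were at 6.45 and 9.02 CPM. The groups overlapped, because embryo 1 lay below both adults, while the other 6 embryos lay above both. Its log2 fold change of 1.65 (SE 0.68) did not pass edgeR's test (adjusted p = 0.0549). This result turned on single libraries and on settings. The adjusted p was 0.0143 without embryo 1, 0.0350 without embryo 3 and 0.0415 without embryo 4, and without both embryos 1 and 4 it was 0.00606 at a log2 fold change of 2.00, still under a fold of 4. DESeq2 gave 0.0163 at 1.61. Once counts had been adjusted for the length and GC content of transcripts, called the length and GC correction below, *Fgf10* was called (2.53, adjusted p = 0.00863). In the other direction, the log2 fold change was 0.92 with the replicate block (adjusted p = 0.201). That block was fitted, here and below, on replicates 1 and 2 alone, and so also left out embryos 3 to 7. The log2 fold change was 1.35 without embryo 7 (adjusted p = 0.0821) and 1.41 without adult 1. Over all 19 alternatives it ran from 0.92 to 2.53, and the adjusted p from 0.00606 to 0.254.

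*Fgf8* and *Fgf10* were also the members that varied most among the embryos. Their coefficients of variation over the 7 embryos were 66.8% and 66.8%, against a median of 38.1% over all genes tested. Embryos 1 to 6 stood in the same order for both ligands, with embryo 1 lowest and embryo 2 highest of them. Parts of that order were near ties, with *Fgf8* at 4.51, 4.73 and 4.75 CPM in embryos 3, 4 and 5. *Fgf10* was at 28.56 and 28.57 CPM in embryos 5 and 6. Embryo 7 was next to lowest for *Fgf8* and highest of all for *Fgf10*.

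The other secreted ligands differed in direction. Of 18 listed, 15 could be tested. In the embryo 6 were called higher (*Fgf3*, *Fgf8*, *Fgf15*, *Fgf16*, *Fgf17* and *Fgf18*), and in the adult 2 (*Fgf1* and *Fgf2*), 53.3% in all, where 11.3% and 14.6% of all genes tested were called in these directions. The median log2 fold change of the 15 was 1.65 (0.66 to 2.42 over the alternatives). *Fgf17* and *Fgf18* encode ligands of the same subfamily as *Fgf8*, and all 3 members of that subfamily were called in the same direction. *Fgf17* was at 5.71 to 17.3 CPM in the embryos and at 0.509 and 0.169 CPM in the adults (log2 fold change 4.89, SE 0.67, adjusted p = 5.5e-05). *Fgf18* was at 1.30 to 7.33 CPM and at 0.315 and 0.253 CPM (log2 fold change 3.42, SE 0.79, adjusted p = 0.00252). Their embryo and adult levels did not overlap. *Fgf16*, of the *Fgf9* subfamily, was also separate, with 2.86 to 14.1 CPM in the embryos and 0.533 and 0.731 CPM in the adults (log2 fold change 3.86, adjusted p = 0.000316).

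*Fgf15*, a ligand of the embryonic diencephalon, had 208 counts over the embryos and 0 in either adult, at least 33.1-fold higher against a floor of 3 counts over the adult group. It was at 0 in embryo 4. *Fgf3*, named after its values were seen, had 68 counts over the embryos and 0 in the adults, at least 10.8-fold higher. It was at 0 in embryos 1 and 4. *Fgf9* was at 1.54 to 5.64 CPM in the embryos and at 9.07 and 15.9 CPM in the adults. Its log2 fold change of -1.68 had an adjusted p of 0.00513 but stayed under a fold of 4, and it became a call without adult 1 (-2.05, adjusted p = 0.0121) and with the replicate block (-2.43, adjusted p = 0.00328), and lost its adjusted p without adult 2 (-1.23, adjusted p = 0.136) and with the length and GC correction (-0.92, adjusted p = 0.0699). *Fgf20* was at 2.40 to 4.73 CPM in the embryos and at 2.11 and 2.61 CPM in the adults (adjusted p = 0.192).

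The ligands called higher in the adult were *Fgf1* and *Fgf2*, which lack a classical signal peptide. *Fgf1* was at 2.86 to 8.01 CPM in the embryos and at 39.3 and 33.6 CPM in the adults (log2 fold change -2.83, SE 0.36, adjusted p = 2.7e-05). *Fgf2* was at 0 to 0.439 CPM and at 5.21 and 6.07 CPM (log2 fold change -4.58, SE 0.74, adjusted p = 0.000197). Both were thus separate between the groups, with the adults on top. On the scale of CPM per kilobase of the longest transcript, *Fgf17* (6.11), *Fgf10* (5.89), *Fgf16* (5.61) and *Fgf8* (4.60) had the highest means in the embryo, and no ligand led in all embryos: *Fgf17* led in embryos 1, 3 and 6, *Fgf16* in 4 and 5, *Fgf8* in 2 and *Fgf10* in 7. In both adults *Fgf1* led (mean 9.14). The summed level of all 18 ligands per kilobase was 17.8 in embryo 1, 30.9 to 37.9 in embryos 2 to 7, and 17.8 and 19.8 in the adults. *Fgf8* made up 13.6% of this sum on average in the embryo and 0.119% in the adult, and *Fgf1* 4.04% and 49.0%.

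**Figure D2:**
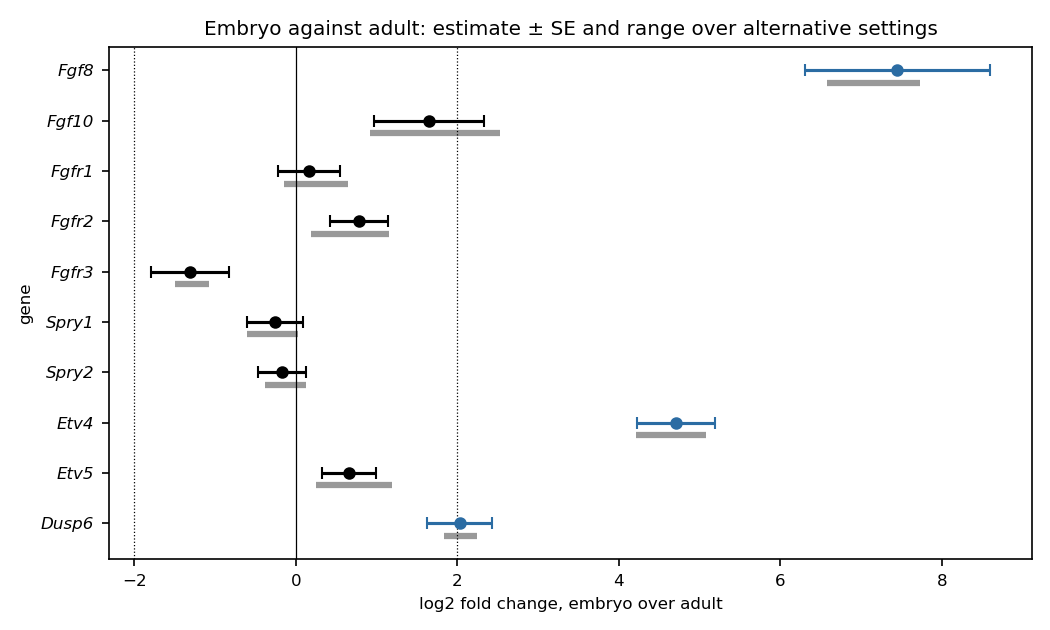
Log2 fold change of each of the 10 FGF genes, embryo over adult. Points show the fit with its standard error, blue where the gene was called, grey bars span the processing alternatives, and dotted lines mark a fold of 4. The bars of *Fgf10* and *Dusp6* cross a dotted line, and those of *Fgfr1*, *Spry1* and *Spry2* cross 0.

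Of the 3 receptor genes among the members, 0 were called by edgeR or DESeq2, and at an unadjusted p below 0.05 *Fgfr2* was higher in the embryo and *Fgfr3* in the adult. *Fgfr1*, a receptor that mesenchyme and neural tissue carry widely, ran from 55.5 CPM (embryo 1) over a median of 96.9 to 160 CPM (embryo 2), and the adults were at 106 and 66.2 CPM. The groups overlapped, with both adults inside the range of the embryos. Its log2 fold change was 0.16 (SE 0.38, adjusted p = 0.742), and its sign was not stable. It was -0.00 without embryo 2 or with scaling by library size alone, -0.15 without adult 2, 0.52 without adult 1 and 0.64 with the length and GC correction (adjusted p = 0.147). Without embryos 1 and 4 it was 0.41 (adjusted p = 0.288).

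*Fgfr2*, the receptor of FGF10 in epithelium, was at 26.4 (embryo 2), 42.3 (median) and 67.6 CPM (embryo 7) in the embryos and at 24.7 and 23.5 CPM in the adults. All 7 embryos lay above both adults, embryos 1 and 2 by little. Its log2 fold change of 0.78 (SE 0.36) did not pass the test (adjusted p = 0.0808) and passed under 3 of the 19 alternatives. Without embryo 1 it was 0.92 (adjusted p = 0.0395) and without embryos 1 and 4 it was 0.97 (adjusted p = 0.0294). With the length and GC correction it was 1.16 (adjusted p = 0.00615), and each of these was under a fold of 4. It was 0.19 with the replicate block (adjusted p = 0.751), a fit that also left out embryos 3 to 7. The embryos kept in that fit, 1 and 2, had the lowest *Fgfr2* levels of all embryos. The gene model of *Fgfr2* shares 314 of its 10328 exon bases with *Ctbp2* on the same strand, so its level is uncertain by what those bases contribute.

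*Fgfr3* ran from 0.847 CPM (embryo 4) over a median of 1.25 to 1.96 CPM (embryo 7), and the adults were at 3.52 and 3.32 CPM. All 7 embryos lay below both adults. The log2 fold change was -1.31 (SE 0.48, adjusted p = 0.0338), under a fold of 4. It rested on 12 to 61 counts per embryo. The adjusted p rose to 0.0627, 0.0522, 0.0646 and 0.0536 without embryos 3, 4, 5 and 6, and to 0.179 and 0.154 without adults 1 and 2. It was 0.0573 with the length and GC correction, 0.386 with the replicate block, 0.0948 without a filter on low counts, 0.0507 with the unstranded count and 0.0292 without both embryos 1 and 4.

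Among the other receptor genes of the list, *Fgfr4* was at 0 to 0.580 CPM in the embryos and at 2.81 and 2.45 CPM in the adults (log2 fold change -2.84, SE 0.75, adjusted p = 0.00586). Without adult 1 its adjusted p was 0.0559. *Fgfrl1*, a receptor-like protein with no kinase domain, was at 26.7 to 42.9 CPM in the embryos and at 6.52 and 5.31 CPM in the adults (log2 fold change 2.50, SE 0.32, adjusted p = 3.1e-05), and with the length and GC correction its log2 fold change of 1.997 was just under a fold of 4. *Kl* encodes Klotho, a coreceptor for the hormone-like FGFs. It was at 0 to 0.372 CPM in the embryos and at 53.7 and 66.3 CPM in the adults (log2 fold change -8.53, SE 0.54, adjusted p = 1.0e-07). Each of these genes was separate between the groups, *Fgfrl1* with the embryos on top and *Fgfr4* and *Kl* with the adults on top. Of the 6 genes tested of this list, 1 was called higher in the embryo and 2 in the adult (11.3% and 14.6% of all genes tested), and *Klb*, the other Klotho coreceptor, had too few counts to be tested (0 to 0.0362 CPM in the embryos).

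Per kilobase, *Fgfr1* was the main receptor at both stages. It made up 65.0 ± 8.57% (mean ± SD) of the summed level of the 4 kinase receptors in the embryo and 70.1 ± 6.03% in the adult, and *Fgfr2* 33.5 ± 8.58% and 23.2 ± 4.84%. *Fgfr3* contributed 1.15 ± 0.287% in the embryo and 3.42 ± 0.696% in the adult. *Fgfr4* contributed 0.332 ± 0.169% and 3.34 ± 0.490%. The share of *Fgfr1* overlapped between the groups. Embryo 2 stood at one end, with 82.9% *Fgfr1* and 15.5% *Fgfr2*, where the others had 57.8% to 66.5% and 32.3% to 40.7%. With the union of exons as the length, chosen after seeing the data, *Fgfr1* made up 68.3% in the embryo and 70.3% in the adult. On that length *Fgfr2* made up 29.7% and 19.5%, *Fgfr3* 1.41% and 3.99%, and *Fgfr4* 0.641% and 6.16%. The share of *Fgfr4* was then above that of *Fgfr3* in the adult.

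**Figure D3:**
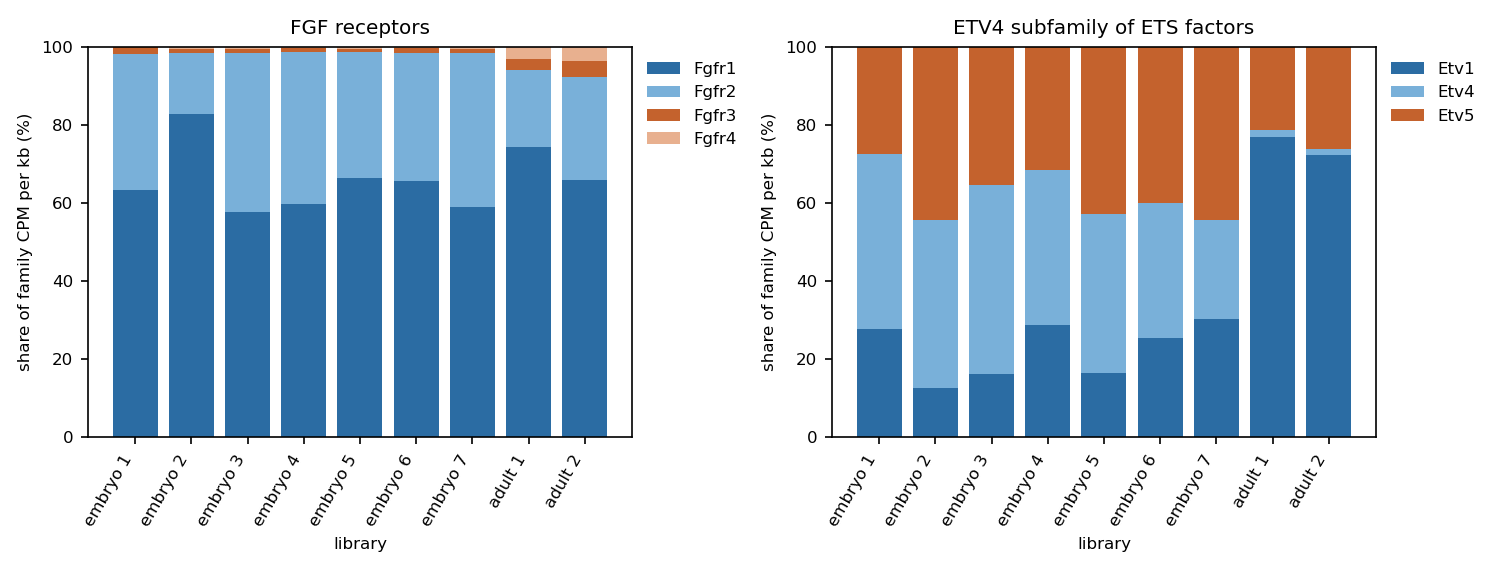
Shares of the FGF receptors and of the ETV4 group in each library, from CPM per kilobase of the longest transcript. The share of *Etv4* is larger in every embryo than in the adults and that of *Etv1* smaller, while *Fgfr1* leads the receptors in all libraries. After a correction for length and GC content the mean share of *Etv5* is lower in the embryo than in the adult, the reverse of the order drawn.

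The targets of the pathway also split. *Etv4* encodes an ETS transcription factor that FGF signalling induces. It ran from 14.4 CPM (embryo 7) over a median of 28.0 to 31.8 CPM (embryo 1), and the adults were at 0.849 and 1.01 CPM. Every embryo lay far above both adults, which held 35 and 36 counts. The log2 fold change was 4.71 (SE 0.48, adjusted p = 5.2e-06 by edgeR's quasi-likelihood test). *Etv4* was called under each of 19 alternatives, at log2 fold changes of 4.22 to 5.09, and at 4.69 without embryos 1 and 4.

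*Etv5*, the close relative of *Etv4*, ran from 26.7 CPM (embryo 4) over a median of 37.4 to 50.3 CPM (embryo 2), and the adults were at 16.7 and 31.9 CPM. The groups overlapped, since adult 2 lay above embryos 4 and 6. Its log2 fold change was 0.66 (SE 0.33, adjusted p = 0.111), and it passed the test under 2 of the 19 alternatives (0.81 without embryos 1 and 4, adjusted p = 0.0462, and 0.79 with the length and GC correction, adjusted p = 0.0213). It was 0.24 without adult 1 (adjusted p = 0.688) and 1.19 without adult 2 (adjusted p = 0.0654). *Etv1*, the remaining factor of the group, was at 23.9 to 53.9 CPM in the embryos and at 100.5 and 146 CPM in the adults. Its log2 fold change of -1.75 (SE 0.29, adjusted p = 0.000247) was under a fold of 4, became a call without adult 1 (-2.01) and was -0.06 (adjusted p = 0.833) with the length and GC correction.

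The 3 factors of the group had another makeup at each stage. Their summed CPM per kilobase was 25.4 ± 4.07 in the embryo and 25.2 ± 7.66 in the adult, and 19.9 and 15.5 with the union of exons as the length. Within it, *Etv4* made up 39.5 ± 7.61% in the embryo (25.4% in embryo 7 to 48.5% in embryo 3) and 1.58 ± 0.289% in the adult. *Etv1* made up 22.5 ± 7.18% and 74.8 ± 3.27%. The shares of both were separate between the groups. With the union of exons as the length, *Etv4* made up 38.9% and 2.00%, *Etv1* 14.4% and 60.6%, and *Etv5* 46.7% and 37.4%. With the length and GC correction, which was added for these shares after seeing the data, *Etv4* made up 35.2% and 3.77%, and *Etv1* 27.3% and 55.7%. The share of *Etv5* was 37.9% in the embryo and 23.7% in the adult, and with that correction it turned round to 37.5% and 40.5%.

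*Dusp6* encodes a phosphatase that switches off ERK and is switched on by FGF signals. It ran from 36.8 CPM (embryo 1) over a median of 75.1 to 109 CPM (embryo 2), and the adults were at 16.3 and 19.8 CPM. All 7 embryos lay above both adults, embryo 1 nearest to them. The log2 fold change was 2.03 (SE 0.40, adjusted p = 0.000879), a fold of 4.09 that lay just past the limit of 4. The adjusted p was at most 0.0216 under the 19 alternatives, but the fold stayed above 4 under only 10 of them. It was under 4 without embryo 2 (log2 fold change 1.92), embryo 3 (1.99) or adult 1 (1.88), with DESeq2 (1.99), with scaling by DESeq2's size factors (1.99) or by library size alone (1.85), with the filter of at least 10 counts in every sample (1.97), with the replicate block (1.86) and with the length and GC correction (1.83). Without embryos 1 and 4 it was 2.24. Per kilobase, *Dusp6* had the highest mean of the target list in the embryo (26.4, against 6.45 in the adult) and led in embryos 2 to 7.

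The Sprouty genes, which encode inhibitors of receptor tyrosine kinase signals, did not pass the test in either direction. *Spry1* was at 13.6 (embryo 1), 23.1 (median) and 34.9 CPM (embryo 2) in the embryos and at 22.9 and 33.2 CPM in the adults. *Spry2* was at 14.6 (embryo 6), 21.2 (median) and 28.0 CPM (embryo 2) and at 24.0 and 22.0 CPM. For both genes the adults lay inside the range of the embryos. Their log2 fold changes were -0.26 (SE 0.35, adjusted p = 0.553) and -0.17 (SE 0.30, adjusted p = 0.658). The sign turned for *Spry1* without adult 2 (0.02) and for *Spry2* with the replicate block (0.13), without embryos 1 and 4 the values were -0.11 and -0.10, and with the length and GC correction they were -0.61 (adjusted p = 0.116) and -0.37 (adjusted p = 0.318). The summed level of *Spry1*, *Spry2* and *Spry4* per kilobase was 20.5 ± 5.44 in the embryo and 23.0 ± 3.01 in the adult.

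The sequences around the starts of these feedback genes are shown because *Dusp6* separated the stages and the Sprouty genes did not, although all are known targets of the same signal. A table of promoters (RefSeq, GRCm38.p6) gave windows from 250 bases before to 50 bases after the start, 300 bases each, for 7 of the 10 genes, 9 windows in all. The table holds no entry for *Fgf8*, *Fgfr1* and *Etv4*. The starts of the *Fgfr2* window and the second *Etv5* window lie 545 and 1202 bases from the nearest start in the GENCODE M21 annotation. Neither window holds bases of the gene's exons there, and both are counted among the 9. Capitals mark 2 motifs, searched on both strands and chosen after the sequences were seen. They are CGGAAG, which holds the core GGAA that ETS factors can bind, and the box CCAAT. On the other strand the former reads CTTCCG and the latter reads ATTGG. No matches overlapped. The windows lie at chr10:99262981-99263280 on the plus strand (*Dusp6*), chr3:37639697-37639996 on the plus strand (*Spry1*) and chr14:105896770-105897069 on the minus strand (*Spry2*), each written 5′ to 3′ along the gene.
Dusp6: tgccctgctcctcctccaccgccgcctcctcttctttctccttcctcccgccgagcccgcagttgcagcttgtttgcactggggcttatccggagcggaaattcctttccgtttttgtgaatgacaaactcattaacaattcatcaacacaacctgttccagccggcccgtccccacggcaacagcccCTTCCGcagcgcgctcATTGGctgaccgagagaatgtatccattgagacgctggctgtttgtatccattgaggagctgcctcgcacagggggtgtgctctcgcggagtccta
Spry1: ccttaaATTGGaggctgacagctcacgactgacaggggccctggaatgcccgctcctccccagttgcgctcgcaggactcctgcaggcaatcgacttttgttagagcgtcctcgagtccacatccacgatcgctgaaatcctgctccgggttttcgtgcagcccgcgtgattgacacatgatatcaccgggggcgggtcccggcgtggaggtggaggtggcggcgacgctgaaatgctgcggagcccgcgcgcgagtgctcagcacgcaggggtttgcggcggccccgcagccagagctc
Spry2: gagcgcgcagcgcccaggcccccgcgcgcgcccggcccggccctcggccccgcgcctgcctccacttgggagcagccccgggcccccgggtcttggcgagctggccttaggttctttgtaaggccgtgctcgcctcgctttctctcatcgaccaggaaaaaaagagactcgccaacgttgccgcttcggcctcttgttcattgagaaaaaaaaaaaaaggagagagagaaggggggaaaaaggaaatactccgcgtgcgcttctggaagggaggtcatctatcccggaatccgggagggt

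CGGAAG was found in 1 of the 9 windows, that of *Dusp6*, and in 16.9% of all 32817 promoter windows of the table. CCAAT was found in 5 of the 9 windows and in 37.4% of all. The *Dusp6* and *Spry1* windows held 1 match to CCAAT each, the *Etv5* windows 3 and 1, and the *Spry2* window 0. The core GGAA by itself also occurs, unmarked, in the *Dusp6*, *Spry1* and *Spry2* windows, so that core does not set *Dusp6* apart. A match describes the letters and is not a binding site, and a window without a match shows only that these letters are not in it. The part of these letters in the levels of the genes was not tested.

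Of the target and feedback list, 18 of 19 genes were tested. By edgeR 4 were called higher in the embryo (22.2%, against 11.3% of all genes tested) and 0 in the adult (against 14.6%). The share in either direction was near the 25.8% of all genes, and 3 more had an adjusted p below 0.05. DESeq2 called 3 and 0, and 5 and 2 genes had an unadjusted p below 0.05. Beside *Etv4* and *Dusp6*, the calls were *Dusp9* and *Dusp4*, which encode further MAP kinase phosphatases. *Dusp9* was at 5.62 to 12.3 CPM in the embryos, 1489 counts in all, and had 3 counts over the adults, a pooled ratio of 237 (95% interval 80.9 to 1150, counting error only). *Dusp4* was at 3.08 to 31.1 CPM in the embryos and at 1.67 and 4.58 CPM in the adults (log2 fold change 2.41, SE 0.79, adjusted p = 0.0203), and without adult 1 it was not called (1.84, adjusted p = 0.172). The median of the list was 0.28 (-0.07 to 0.72 over the alternatives). In the adult, *Etv1* had the highest level of the list per kilobase (18.7).

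Per kilobase, the 10 members kept neither their order nor their span between stages. In the embryo the order ran *Dusp6* (26.4), *Fgfr1* (19.1), *Etv4* (10.2), *Spry2* (9.80), *Etv5* (9.62), *Fgfr2* (9.36), *Spry1* (8.44), *Fgf10* (5.89), *Fgf8* (4.60) and *Fgfr3* (0.322). All neighbours in that order lay within the sum of their SDs, except *Fgf8* and *Fgfr3*. In the adult the order ran *Fgfr1* (17.1), *Spry2* (11), *Spry1* (10.1), *Dusp6* (6.45), *Etv5* (6.11), *Fgfr2* (5.44), *Fgf10* (1.88), *Fgfr3* (0.805), *Etv4* (0.388) and *Fgf8* (0.0224). There the neighbours *Fgfr1* and *Spry2*, *Spry2* and *Spry1*, *Dusp6* and *Etv5*, and *Etv5* and *Fgfr2* lay within the sum of their SDs, and the remaining neighbours did not. *Etv4* and *Fgf8* thus stood at the bottom of the adult order, and *Fgfr1* and the Sprouty genes at its top.

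Of 19 genes of the relay between receptor and nucleus, 0 were called higher in the embryo and 3 (15.8%) in the adult, by edgeR and by DESeq2 alike, against 11.3% and 14.6% of all genes tested. At an unadjusted p below 0.05 there were 7 and 8, and 10 of the genes not called had an adjusted p below 0.05 at a fold under 4. *Braf*, a kinase upstream of ERK, was at 2.44 to 11.1 CPM in the embryos and at 76.2 and 73.8 CPM in the adults (log2 fold change -3.35, SE 0.36, adjusted p = 7.4e-06). *Sos1* and *Sos2*, which load RAS with GTP, had log2 fold changes of -2.49 (adjusted p = 2.1e-05) and -2.65 (adjusted p = 6.8e-06). These 3 calls were lost with the length and GC correction, under which the log2 fold changes were -1.37, -0.57 and -1.47. *Mapk3*, which encodes ERK1 and had the highest level of the relay per kilobase at both stages (94.2 and 54.9), had a log2 fold change of 0.78 (adjusted p = 0.0421). That adjusted p was 0.0649 without embryo 2, 0.0570 without embryo 5, 0.121 without adult 1 and 0.290 without adult 2, and the log2 fold change was -0.00 after the same correction. The median of the relay was -0.24 (-0.41 to 0.00 over the alternatives).

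Of 28 heparan sulphate genes tested, 3 were called higher in the embryo and 4 in the adult, 25% in all and near the 25.8% of all genes, and 8 more had an adjusted p below 0.05. *Gpc3*, a glypican, was the gene with the highest level of the list per kilobase in the embryo (190). It was at 257 to 584 CPM in the embryos and at 67.8 and 42.9 CPM in the adults (log2 fold change 2.93, SE 0.43, adjusted p = 0.000104). *Gpc1* (2.7, adjusted p = 1.9e-05) and *Fgfbp1*, a carrier that releases stored FGF (3.13, adjusted p = 0.00204), were called in the same direction, *Fgfbp1* under 18 of the 19 alternatives. Of the genes called higher in the adult, *Gpc5* (-6.72, adjusted p = 1.0e-05), the sulphotransferases *Ndst3* (-5.47, adjusted p = 5.5e-05) and *Hs6st3* (-3.85, adjusted p = 0.00427) were at most at 0.802 CPM in any embryo. *Sdc2*, a syndecan, had the highest level per kilobase in the adult (55.2, against 20.5 in the embryo; log2 fold change -1.43, adjusted p = 0.000343). The median of the list was -0.29, and its sign turned to 0.55 with the length and GC correction and to 0.16 with the filter of at least 10 counts in every sample.

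The FGF homologous factors stay inside the cell and act on sodium channels. Of 4 tested, 0 were called higher in the embryo and 1 in the adult, by edgeR and by DESeq2, against 11.3% and 14.6% of all genes tested. That is 25% in either direction, near the 25.8% of all genes, with 1 and 2 at an unadjusted p below 0.05. The gene called, *Fgf14*, was at 2.27 to 11.8 CPM in the embryos and at 38.2 and 50.8 CPM in the adults (log2 fold change -2.76, SE 0.46, adjusted p = 0.000252), and its log2 fold change of -1.96 with the length and GC correction was under a fold of 4. *Fgf13* was at 13.1 to 26.3 CPM and at 12.1 and 16.2 CPM (log2 fold change 0.56, adjusted p = 0.158). The median of the 4 was -0.60 (-0.81 to -0.22 over the alternatives). Over all 95 genes listed, 90 were tested, 14 were called higher in the embryo and 12 in the adult, 28.9% in all, near the 25.8% of all genes.

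**Figure D4:**
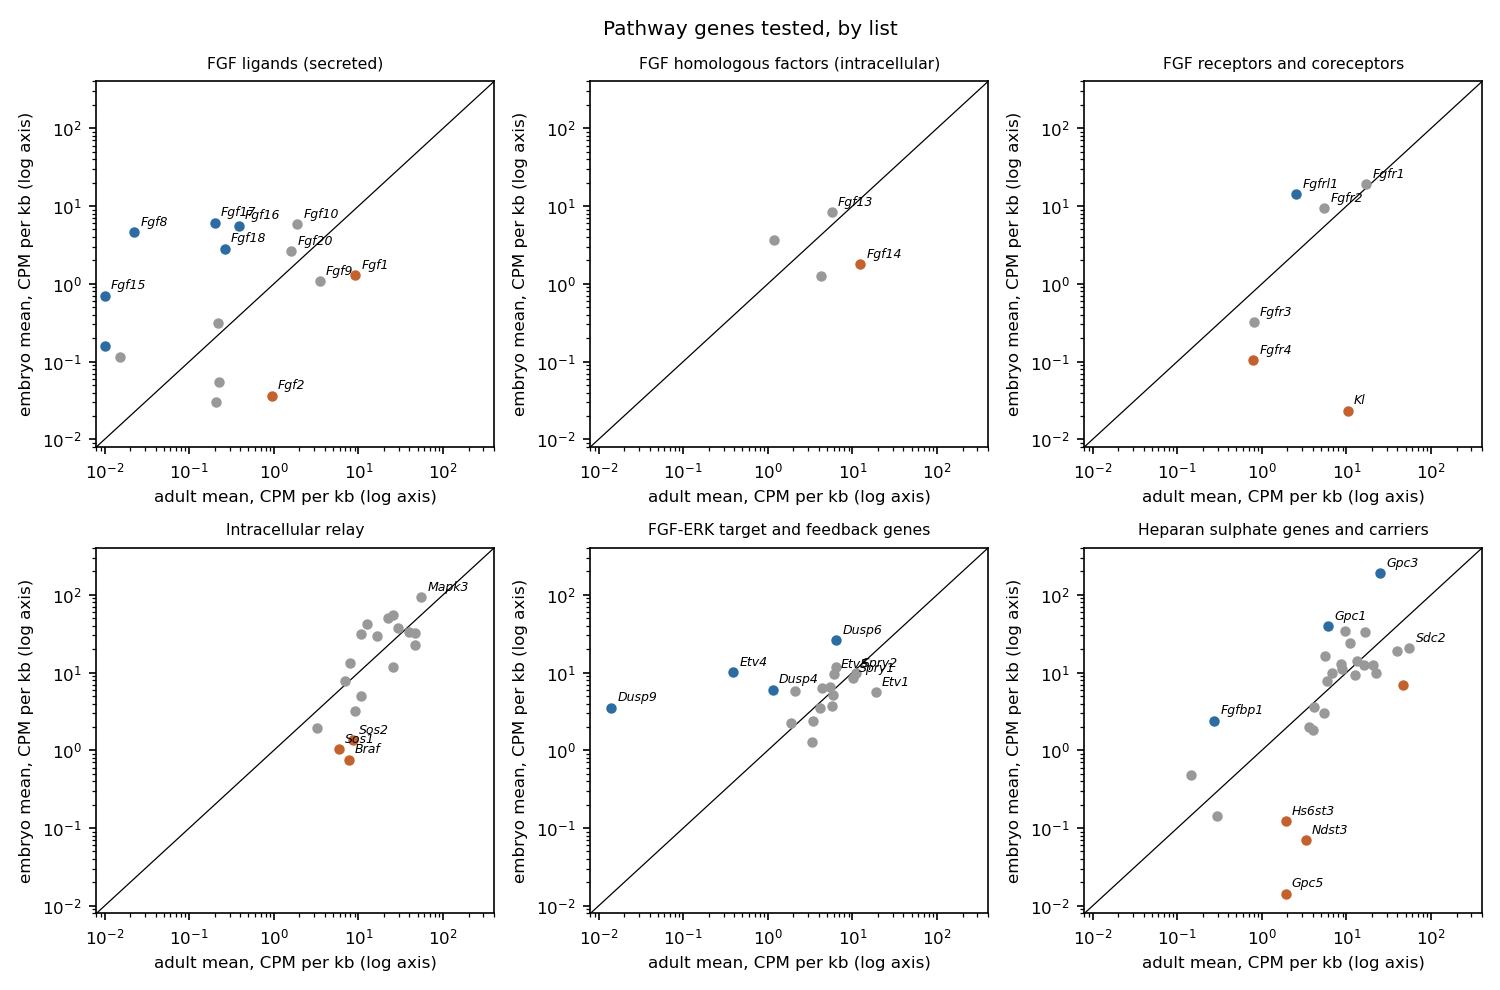
Mean level of each pathway gene tested in the embryo and the adult, as CPM per kilobase on log axes. Each panel is a list, colours mark the genes called in each direction, and levels below 0.01 are drawn at 0.01. Secreted ligands are found on both sides of the diagonal.

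Markers of neighbouring tissues differed between the groups alongside these genes. Of the neural and infundibular markers, 4 of 6 tested were called higher in the embryo (*Nkx2-1*, *Rax*, *Lhx2* and *Fabp7*). The other 2, *Dcx* and *Elavl3*, had log2 fold changes of -1.37 (adjusted p = 0.0191) and -1.03 (adjusted p = 0.117). The summed level of the list was 98.4, 203, 99.6, 78.9, 109, 133 and 111 CPM in embryos 1 to 7, with 41.3 and 38.1 CPM in the adults. The most abundant was *Rax* (50.9 CPM on average, 92.8 CPM in embryo 2), while *Olig2* and *Neurog2* were at or near 0 in all libraries. Embryo 2 held the most of this list. Of the mesenchyme markers, 7 of 10 were called higher in the embryo and 1 in the adult. Their sum was 1785, 2180, 711, 1083, 1729, 1565 and 2433 CPM in embryos 1 to 7, and 642 and 430 CPM in the adults, with *Col3a1* the most abundant (683 CPM). Embryo 7 held the most of it. The part of these tissues in the differences of the FGF genes was not tested.

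Of the cartilage markers, 4 of 6 tested were called higher in the embryo and 1 in the adult. Their sum was 199, 388, 267, 205, 402, 299 and 370 CPM in embryos 1 to 7, and 58.5 and 41.4 CPM in the adults. *Col2a1* was the most abundant (259 CPM), *Acan* was at 0 to 3.88 CPM in the embryos, and *Matn1* was at 0 in embryos 3 and 4 and in the adults. Endothelial markers (2 of 6 called higher in the embryo) summed to 331, 547, 155, 249, 298, 290 and 312 CPM in embryos 1 to 7, and 122 and 76.6 CPM in the adults, with *Cldn5* at a mean of 77.3 CPM in the embryo. Myeloid markers (0 of 5 called higher in the embryo by edgeR and by DESeq2, with 1 at an unadjusted p below 0.05, and 1 called in the adult, *Ptprc*) summed to 160, 245, 118, 111, 115, 94.5 and 103 CPM, and 83.5 and 131 CPM, with *C1qb* at a mean of 50.5 CPM in the embryo. Stratified epithelium (2 of 4 called higher in the embryo) was scarce, at 2.50 to 8.37 CPM in the embryos and 3.10 and 2.76 CPM in the adults, with *Krt5* at a mean of 1.72 CPM and *Trp63* at 0 in embryos 1, 4 and 5. Erythroid markers (5 of 6 called higher in the embryo) summed to 176429, 19578, 19379, 220799, 16179, 19253 and 6318 CPM, and 745 and 1895 CPM, with *Hbb-y* the most abundant. *Fgfr1* was lowest in embryos 1 and 4, where the erythroid sum was highest, and the part of that sum in its levels was not tested.

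Relations across the 7 embryos were tested for each member against the neural, mesenchyme and cartilage sums, and for the target genes against *Fgf8* and *Fgf10*. This made a family of 40, with exact permutation over all orders of the embryos (smallest possible p = 0.000397) and Benjamini-Hochberg adjustment. Pearson's r passed for 1 relation, *Fgfr1* with the cartilage sum (r = 0.958, exact permutation p = 0.000992, adjusted p = 0.0397). In the embryo *Col2a1* made up most of that sum (means of 259 and 304 CPM), so the sum largely follows that gene. Spearman's rho for the same relation was 0.964 (exact permutation p = 0.00278), which did not pass (adjusted p = 0.111). Embryos 1 and 4 lay farthest from the median and held the least of both, and without them r was 0.879. That relation was the only call of 40 by Pearson's r, with 4 at an unadjusted p below 0.05, and Spearman's rho gave 0 calls with 4 at an unadjusted p below 0.05. With the length and GC correction r was 0.891 and 0 of the 40 passed. The 5 embryos left without embryos 1 and 4 have too few orders for a useful test of the 40. *Fgf8* with the neural sum had r = 0.606 (exact permutation p = 0.160, adjusted p = 0.394). *Fgf10* with the mesenchyme sum had r = 0.603 (exact permutation p = 0.156, adjusted p = 0.394). Without embryos 1 and 4 these were 0.930 and 0.983, and *Fgf8* with the neural sum was 0.667 without embryos 2 and 4. Other relations fell without embryos 1 and 4. *Fgf10* with the neural sum went from 0.545 to 0.365, *Fgf8* with the cartilage sum from 0.597 to 0.160, and *Fgfr2* with the neural sum from -0.220 to -0.835. *Fgf10* with the cartilage sum had r = 0.869 (exact permutation p = 0.0214, adjusted p = 0.214) and 0.760 without embryos 1 and 4.

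**Figure D5:**
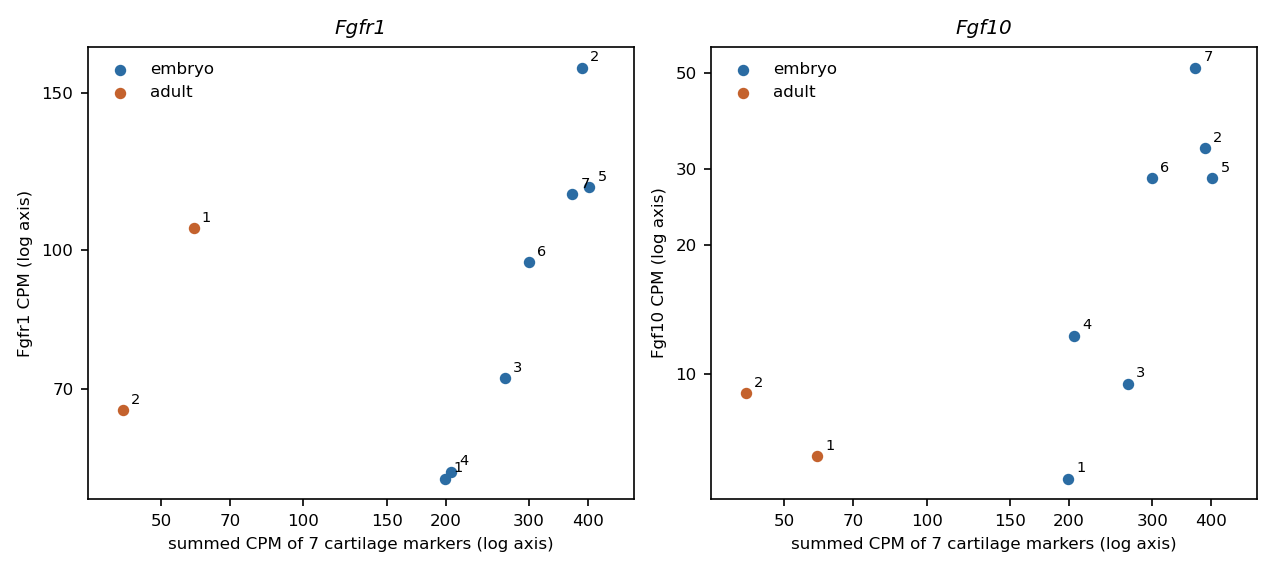
*Fgfr1* and *Fgf10* against the summed CPM of 7 cartilage markers in each library, on log axes. Numbers are the replicates. Embryos 1 and 4 hold the least cartilage marker RNA among the embryos, where *Col2a1* makes up most of the sum.

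The target genes did not follow the ligands across embryos past the test. *Dusp6* with *Fgf8* had r = 0.753 (exact permutation p = 0.0552, adjusted p = 0.368) and rho = 0.464. Without embryos 1 and 2, the lowest and the highest for *Fgf8*, r was -0.530. Taking out both ends narrows the range, so a lower r was likely beforehand and does not show where the r came from. *Etv4* with *Fgf8* had r = -0.182 (exact permutation p = 0.704, adjusted p = 0.828), and *Etv4* was lowest in embryo 7, where *Fgf10* was highest (r = -0.591 with *Fgf10*, exact permutation p = 0.167, adjusted p = 0.394). A relation that missed the test is not shown to be absent.

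Of 11750 genes compared over the 7 embryos by Pearson's r of log2 CPM, those most like *Fgf8* were *Ifngr2* (0.985), *Mlc1* (0.984) and *Prps1* (0.982). For *Fgf10* they were *Mgat3* (0.984), *Aph1b* (0.984) and *Thsd4* (0.983). For *Dusp6* they were *Cttn* (0.989), *1600014C10Rik* (0.983) and *Tmem268* (0.980). All 9 had an r of at least 0.949 without embryos 1 and 4. That is no test of stability, since they were chosen for a high r over embryos that include those left. Between the stages, the genes most like *Fgf8* differed in direction. *Mlc1* was called higher in the adult (log2 fold change -3.51, adjusted p = 5.6e-05), against the direction of *Fgf8*, *Ifngr2* was higher in the embryo at a fold under 4 (1.40, adjusted p = 0.00893), and *Prps1* had -0.25 (adjusted p = 0.413). These genes are given as a description, with no test.

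Across the roles, *Fgf8* with its subfamily, *Etv4*, *Dusp9* and, at the limit of the threshold, *Dusp6* were higher in the embryo than in the adult. The kinase receptors *Fgfr1* and *Fgfr2* and the Sprouty genes did not pass the test, and *Kl*, *Fgf1* and *Fgf2* were higher in the adult. The p-values measure the spread between these 9 libraries, with a spread in the adult that rests on 2 animals.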

How the data were processed

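RNA was measured in 7 embryonic Rathke's pouches (e13.5) and in 2 adult pituitaries (postnatal week 8). The authors trimmed read pairs and aligned them to GRCm38 (Trimmomatic 0.39 and STAR 2.7.5b in the submitters' processing notes), and the deposited files give raw counts of read pairs per gene, not normalised. The strand-specific counts were used, since the library kit marks strand. All 55450 identifiers were found in the GENCODE M21 annotation (Ensembl 96), which gave symbols and lengths. Rows that name no gene were left out. In embryos 1 to 7 and adults 1 and 2 they held, as shares of all read pairs, 10.3, 1.73, 2.54, 4.74, 1.57, 1.38, 0.863, 1.02 and 0.854% unmapped, 21.7, 14.1, 14.5, 26.1, 15.5, 19.7, 14.2, 7.16 and 7.52% multimapping, 6.31, 2.79, 3.07, 4.24, 2.70, 2.40, 2.80, 6.38 and 6.62% on no feature, and 2.02, 2.64, 2.53, 2.10, 2.35, 2.57, 2.17, 1.42 and 1.32% ambiguous.

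Counts were scaled by TMM and fitted with edgeR 4.0.16 (quasi-likelihood, stage as the only term, common dispersion 0.190) in R 4.3.3. The 19371 genes whose counts averaged 5 or more were kept, with the filter and thresholds of the study. Adjusted p-values in the report are from this test, with Benjamini-Hochberg adjustment over all genes tested, unless exact permutation is named. The code was tested on simulated data. Other steps used Python 3.11.15 with scipy 1.17.1, pandas 2.3.3, numpy 2.4.6 and, for figures, matplotlib 3.10.9.

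The members and lists were chosen with earlier results of these data known. Named genes are the 10 members and, of each list, the 3 called genes with the largest fold change in each direction at a mean count of at least 20, the gene highest per kilobase at each stage, ligands and receptors with a mean of at least 1 CPM at either stage, the markers, and for *Fgf8*, *Fgf10* and *Dusp6* the 3 most alike genes averaging 100 counts or more in the embryos. The results for 2 marker genes are not reported here.

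The alternatives were DESeq2 1.42.0, its size factors, library size alone, other filters (edgeR's filterByExpr, none, or 10 counts or more in every sample), unstranded counts, a test against a fold of 4 (glmTreat), a fold above 2, no threshold on fold, a replicate block, each library left out, embryos 1 and 4 both left out, and a length and GC correction (a spline with 4 degrees of freedom for each, per library, from genes averaging 50 counts or more).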

Additional observations from a re-analysis of the deposited data

Results flagged for a closer look

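*Fgf18* in embryo 2 was at 7.33 CPM, apart from the other embryos, with a gap to the next of 0.584 of the whole range. It was the 1 value marked in this way among 37 named genes, and chance marks about 1 in 20 groups.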

How the results depend on the processing

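The log2 fold changes of 7 of the 10 members kept their direction under every alternative tried, and so did 26 of 27 other named genes. Over 189 alternative values of the members, 161 kept direction and side of the adjusted p threshold, 10 lost the threshold, 13 reached it and 5 turned direction. *Fgfr1* turned to -0.000738 by library size alone and ran from -0.15 to 0.52 as single libraries were left out, *Spry1* ran from -0.52 to 0.0222 in the same way, *Spry2* turned to 0.13 with the replicate block, and *Mapk3* turned to -0.00479 with the length and GC correction. The causes were not tested.

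Against 5001 genes called, 3 members higher in the embryo, 0 in the adult, and 14 and 12 pathway genes, the counts were as follows. With at least 10 counts in every sample, where fewer genes are tested (13491) and *Fgf8* could not be, they were 2634, 1, 0, 7 and 6. With glmTreat they were 1744, 2, 0, 8 and 5. With a fold above 2 they were 8960, 3, 1 (*Fgfr3*), 23 and 25, and with no threshold on fold 9948, 3, 1, 26 and 25, by construction more. Leaving out single libraries, or embryos 1 and 4 together, gave 3683 to 5401 genes called, 2 to 3 members higher in the embryo, 0 in the adult, and 12 to 14 pathway genes in each direction. With 1 adult left, that adult is assumed to vary like the other group. With the length and GC correction they were 4036, 3 (*Fgf10* called in place of *Dusp6*), 0, 17 and 9. With the replicate block, on replicates 1 and 2, they were 4151, 2, 0, 12 and 12, and the median of all genes was -0.25; there *Fgfr3* had -1.10 (adjusted p = 0.386) and *Fgfr2* 0.19 (adjusted p = 0.751), and *Fgfbp1* (2.60, adjusted p = 0.0541), *Fgfr4* (-3.78, adjusted p = 0.0505) and *Dusp4* (1.90, adjusted p = 0.0146) were not called. Same-numbered animals are different animals, and their deviations did not go together (r = 0.0635 and 0.0155), so they share only a number. The relations that passed across embryos were 1, with 3 by library size alone and 0 with the length and GC correction, the cause not tested. They were 0 without embryos 1 and 4, which the few orders of 5 embryos all but fix beforehand.

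The adult spread rests on a single difference between 2 adults, a male and a female by the paper's account. Levels near the floor of 3 counts, such as adult *Fgf8*, are known only within wide counting intervals.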
